A study of Mus musculus with 45 samples.

Results

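Cluster C3 of the Ter119+ erythroblasts was described here in mice with an intact Stag2 gene (Stag2 WT). Its members were the nuclei that the authors' deposited table of nuclei places in cluster C3 and gives the genotype Stag2 WT. This held for 10059 of 34073 nuclei. The series compared Stag2 WT with Stag2 KO mice, both given pIpC, a synthetic double-stranded RNA, and taken 6 to 8 weeks after its final dose. Nuclei of Ter119+ erythroblasts were profiled with 10x Genomics multiome libraries, and the 3 WT and 3 KO ATAC libraries were used. ATAC reads mark open chromatin. The labels name neither the Stag2 allele nor the recombinase that deletes it, and do not say which animal each library came from, so the spread between libraries may be technical. Int is an authors' class name, used here for clusters C6, C9 and C11 only, which held 2834, 1835 and 3607 WT nuclei in the same 3 libraries. These clusters held 91.7% of the 8798 WT nuclei of class Int; 628 others were in C5, which was not used, and 195 nuclei of C6 had the class Late. A gene score sums the ATAC fragments around a gene. It measures accessibility and not expression, and genes that lie close together share fragments.

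Ter119 is a surface protein of erythroblasts, the precursors of red cells. As erythroblasts mature they stop dividing, fill with haemoglobin, build a membrane skeleton on spectrin and ankyrin, clear mitochondria and other organelles, condense the nucleus and expel it. Stag2 is part of cohesin, a ring-shaped protein complex that holds DNA in loops.

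C3 was made almost wholly of WT nuclei. Of its 10134 nuclei, 99.3% were WT. WT replicates 1, 2 and 3 gave 4331, 2881 and 2847 nuclei, which were 63.1%, 49.5% and 40.7% of the nuclei of each library (Wilson 95% intervals 61.9% to 64.2%, 48.2% to 50.8% and 39.6% to 41.9%, which cover counting error only). The share was highest in WT replicate 1 and lowest in WT replicate 3, and the intervals were apart. KO replicates 1, 2 and 3 held 17, 21 and 37 nuclei of C3, under the minimum of 50 set for a profile, and C3 was not compared between genotypes. The authors' class was Late for 10045 of the 10059 WT nuclei and Int for 14, and C3 made up 95.5% of all WT Late nuclei. Within C3, 47 barcodes occurred in 2 WT libraries, and 395 nuclei shared a barcode with a nucleus of another library of the series. A doublet score above 0 was found for 11.2% of the C3 nuclei, and no nucleus was removed for it.

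Promoters of 3 genes with higher scores in C3 are shown. Tmcc2 and Tbcel are among the 10 named genes with the largest difference to Int, and Epb41 encodes protein 4.1R of the membrane skeleton. The sequences are the 250 bases before the RefSeq start in GRCm38.p6, on the minus strand, at chr1:132391387-132391636 for Tmcc2, chr9:42472239-42472488 for Tbcel and chr4:132075314-132075563 for Epb41. Capitals mark matches to CCNCNCCC, the CACC-type motif that Klf1 binds, on either strand; AGATAA, the GATA motif, and TGAGTCA, a motif of Nfe2 and AP-1, had no match in these windows.
Tmcc2: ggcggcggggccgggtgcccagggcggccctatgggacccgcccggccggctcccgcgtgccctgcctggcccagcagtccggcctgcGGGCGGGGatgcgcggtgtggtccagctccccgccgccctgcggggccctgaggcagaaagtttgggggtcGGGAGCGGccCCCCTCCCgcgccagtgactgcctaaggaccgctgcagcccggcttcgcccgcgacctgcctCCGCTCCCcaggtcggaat
Tbcel: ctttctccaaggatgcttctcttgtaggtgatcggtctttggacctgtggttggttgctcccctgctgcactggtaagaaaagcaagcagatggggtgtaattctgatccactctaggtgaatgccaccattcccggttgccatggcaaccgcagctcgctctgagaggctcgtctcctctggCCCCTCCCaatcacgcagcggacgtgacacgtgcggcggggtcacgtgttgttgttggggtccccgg
Epb41: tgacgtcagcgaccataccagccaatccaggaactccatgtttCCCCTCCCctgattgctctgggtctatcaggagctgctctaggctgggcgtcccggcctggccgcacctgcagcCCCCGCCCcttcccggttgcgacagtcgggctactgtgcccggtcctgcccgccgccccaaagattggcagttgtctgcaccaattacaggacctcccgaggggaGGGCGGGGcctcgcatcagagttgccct

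Over all genes compared, 12759 of 17894 had a RefSeq start within 1000 base pairs of the deposited start. CCNCNCCC was found in 61.5% of these windows, in 57% of the 270 windows of genes higher in C3 than in Int and in 58.4% of the 2873 windows of genes lower. AGATAA was found in 6.53%, 2.59% and 8.14% of the same sets, and TGAGTCA in 3.47%, 3.33% and 3.83%. No 2 of these motifs can match the same letters in full. A match is a description of the sequence, and accessibility within these windows was not measured separately.

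The depth and the quality of the nuclei differed between clusters. Median fragments per C3 nucleus were 6960, 6626 and 5771 in WT replicates 1, 2 and 3. They were 5027, 5872 and 5189 in C6, but 19427.5, 17341 and 16659 in C9 and 15318.5, 15501 and 14126 in C11. C3 thus resembled C6 in depth and was shallower than C9 and C11 in each library. The share of fragment ends in peaks was 64.1%, 64.5% and 66.4% in C3 against 58.6% for the mean of the Int clusters, and was higher in C3 in 3 of 3 libraries. C6 stood at 62.9% ± 1.94 (SD, n = 3), C9 at 56.1% ± 2.97 and C11 at 56.7% ± 3.07. The share of fragment ends in promoters was 51.7% ± 1.77 in C3 and 51.3% ± 2.30 in C6, but 42.7% ± 3.12 in C9 and 45.6% ± 2.89 in C11. The nucleosome ratio (fragments that span a nucleosome over those that do not) was 0.84 in C3 and 0.789 for the mean of Int, which C3 exceeded in 3 of 3 libraries. By cluster it was 0.745 in C6, 0.784 in C11 and 0.837 in C9, and in WT replicate 3 C9 stood above C3 (0.762 and 0.754). Enrichment at start sites (33.5 in C3, 33.1 in Int), blacklisted ends (4.58% and 4.45%) and doublet scores above 0 (10.9% and 14.9% of nuclei) did not have the same direction in every library. For the 4 measures with a single direction against the mean of Int the exact sign-flip permutation test gave p = 0.25, two-sided, which is the smallest that 3 libraries allow, and 0.44 after Benjamini-Hochberg adjustment over the 7 measures. For the other 3 measures the exact p was 0.5.

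**Figure D1:**
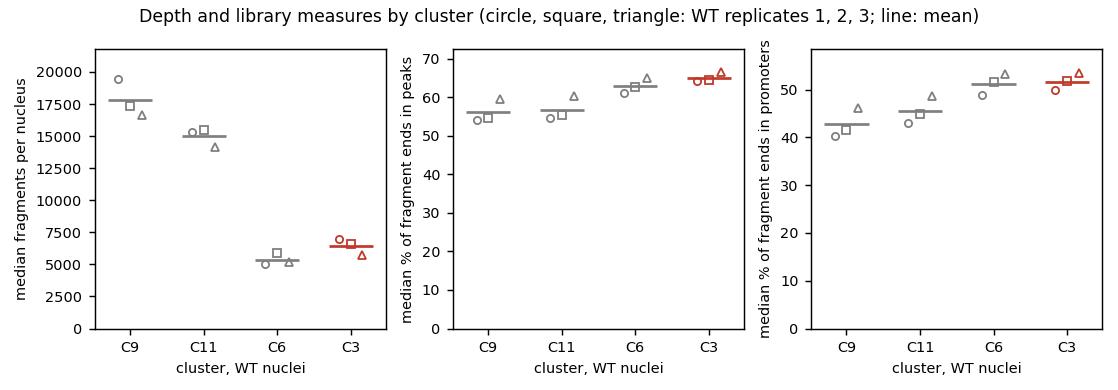
Depth and library measures of WT nuclei by cluster. The 3 panels give median fragments per nucleus, median percent of fragment ends in peaks and median percent of fragment ends in promoters (vertical axes from 0) for clusters C9, C11, C6 and C3; each symbol is a WT library and each line the mean of 3. C3 and C6 lie close together, and C9 and C11 hold deeper nuclei with smaller shares of ends in peaks and promoters.

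The nuclei of each library and cluster were averaged into a profile of gene scores, rescaled to a sum of 1000000. All levels below are on that scale. Differences are log2(level + 1) of C3 less that of Int within the same library, given as the mean ± SD of 3 WT libraries; Int is the mean of the profiles of C6, C9 and C11. A gene was counted as higher or lower where this difference was at least 0.5 in the same direction in each of the 3 libraries. What the authors clustered the nuclei on is not given in the sources used here. The gene scores come from the same nuclei and may have entered the clustering, so no test of gene scores was made between clusters.

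C3 differed from Int mostly through lower scores. Of 17894 genes, 393 were higher in C3 (2.2%) and 4264 were lower (23.8%). At a difference of at least 1 the counts were 26 higher (0.145%) and 1644 lower (9.19%). Against each of C6, C9 and C11 taken singly, 170 genes were higher (0.95%) and 2355 lower (13.2%). Called genes whose starts lay within 100 kb of one another were joined into loci, which left 273 higher and 3355 lower loci against Int. Neighbours named below were also found from start to start. Genes inside a long gene or at its far end can thus be missed. The median over all genes was -0.16. Of the 4264 lower genes 2284 had a C3 mean under the filter of 5 and were compared only through their level in Int, and among the members of all lists this held for 17 of 48. The split depended on the scale: 8.44% of the calls were higher, against 34.7% after median centring and 41.9% after quantile normalization, which moved the median of all genes to 0.07 and 0.04. With genes kept at a mean of 20 in place of 5, 26.3% of the calls were higher.

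The lower genes were long and had low scores. Their median length was 43737.5 base pairs, against 18142 for all genes and 12888 for the higher genes. Of the 4474 longest genes 45.4% were lower in C3, and of the 4474 shortest 23.7%, near the 23.8% of all genes. The share among genes of middle length is not given here. Over 4 equal groups of genes by Int level, from lowest to highest, the median difference was -0.62, -0.38, -0.0015 and 0.11, and 45.7%, 33.6%, 11.9% and 4.09% of the genes were lower, so the share of lower genes in a list moves with the level of its members. The shares of higher genes in the same groups were 0.536%, 1.81%, 2.97% and 3.46%. The depth and the shares of ends in peaks given above moved with the same contrast; their part in these counts was not tested. Against C6, the cluster of like depth, 512 of 16151 genes were higher (3.17%) and 1796 lower (11.1%). Against C9 the counts were 577 higher (3.39%) and 4757 lower (28%) of 16999, and against C11 519 higher (2.99%) and 3827 lower (22.1%) of 17344. With nuclei of 4000 to 10000 fragments, 2478 genes were lower against C9 and 2412 against C11, and 1656 against C6. In WT replicates 1, 2 and 3 this window held 62, 98 and 58 nuclei of C9 and 144, 98 and 167 of C11. It held 339, 348 and 872 of C6 and 2880, 2003 and 1903 of C3. Without WT replicate 1 or 2 the count higher than in C6 was 802 or 816, since the rule then asked for 2 libraries.

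**Figure D2:**
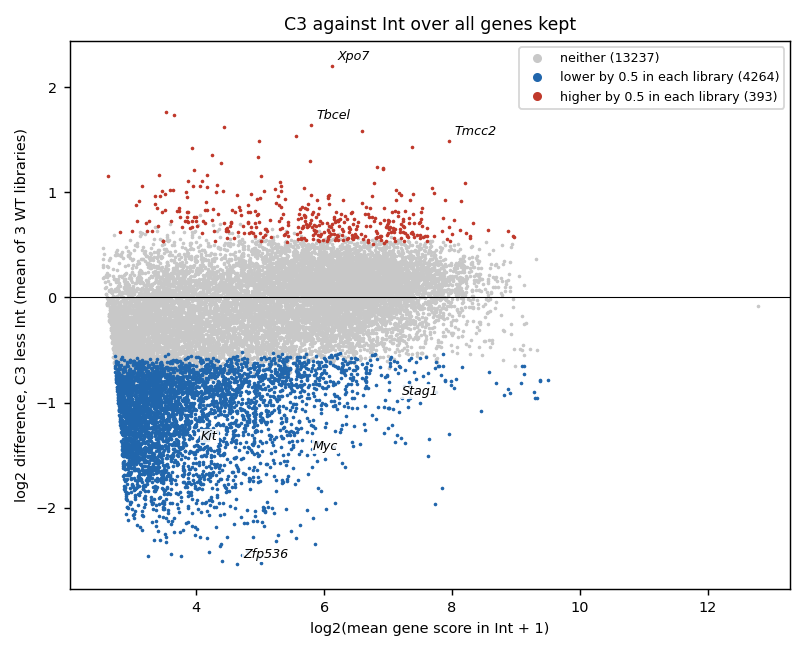
Each point is 1 of 17894 genes: the horizontal axis gives log2 of the mean score in Int plus 1, the vertical axis the log2 difference of C3 less Int, the mean of 3 WT libraries. The 393 higher genes occur at low and high scores, with a larger share at high scores and Xpo7 on top. The 4264 lower genes crowd at low scores.

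The higher genes held an unequal part of the chromosomes. Chromosome 11 had 59 higher genes among 1518 (3.89%) and 179 lower (11.8%), the highest and the lowest share of the 20 chromosomes compared. These shares were not set beside the length and score level of the genes on each chromosome. Chromosome 15 had the smallest share of higher genes, 1.24%, and chromosome 13 the largest share of lower genes, 35.5%.

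Xpo7 stood first. Exportin 7 carries proteins across the nuclear envelope and takes part in the condensation of the erythroblast nucleus. Its score was 294, 328 and 338 in C3 of WT replicates 1, 2 and 3, and it lay between 54.4 and 93.1 in C6, C9 and C11 of these libraries. The groups were far apart, and the difference was 2.20 ± 0.19, or 4.61 times on the linear scale. The gene lies at chr14:70654246-70766628 (mm10), and its neighbour Dok2, within 100 kb, was also counted as higher. Among C3 nuclei of 4000 to 10000 fragments, 94.9%, 95.1% and 95.9% had an Xpo7 score above 0. In Int nuclei of the same window the share was between 48% in C9 of WT replicate 2 and 60.4% in C11 of WT replicate 1, with median depths of 6237 to 8733 fragments against 6518 to 7217.5 in C3. Over nuclei of every depth the shares were 89.7% to 91.1% in C3 and 42.1% to 76.7% in the Int clusters. Most C3 nuclei thus had a score above 0, but these shares do not show how the high mean was spread over the nuclei.

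Of the other 9 genes among the 10 highest, Tbcel, Tmem131l, Tmcc2 and Specc1 had no called neighbour with a start within 100 kb of their own. Tmcc2, a membrane protein with coiled coils, scored 703, 659 and 710 in C3 and 194 to 301 in the Int profiles (difference 1.49 ± 0.06, chr1:132356315-132391386). Specc1, which encodes a coiled-coil protein with a calponin homology domain, scored 465, 418 and 450 against 147 to 197 (1.43 ± 0.05, chr11:61956763-62223013). Tbcel, a relative of a tubulin cofactor, scored 172, 171 and 172 against 48 to 69 (1.64 ± 0.05, chr9:42412317-42472226). Tmem131l scored 296, 271 and 295 against 84.8 to 106 (1.59 ± 0.12). All 10 were named because they were higher than each Int cluster in each library, so their separation from Int restates that choice. The other genes named were Zfp874a (1.76), Fam229a (1.73), Zfp874b (1.62), Tmem200b (1.54) and Khnyn (1.42), of which Zfp874a and Fam229a ranked next after Xpo7. Zfp874a and Zfp874b are neighbours on chromosome 13 and are similar zinc finger genes, Tmem200b adjoins the far end of Epb41 on chromosome 4, and Fam229a and Khnyn each have called neighbours, so for these the gene behind the signal is uncertain.

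**Figure D3:**
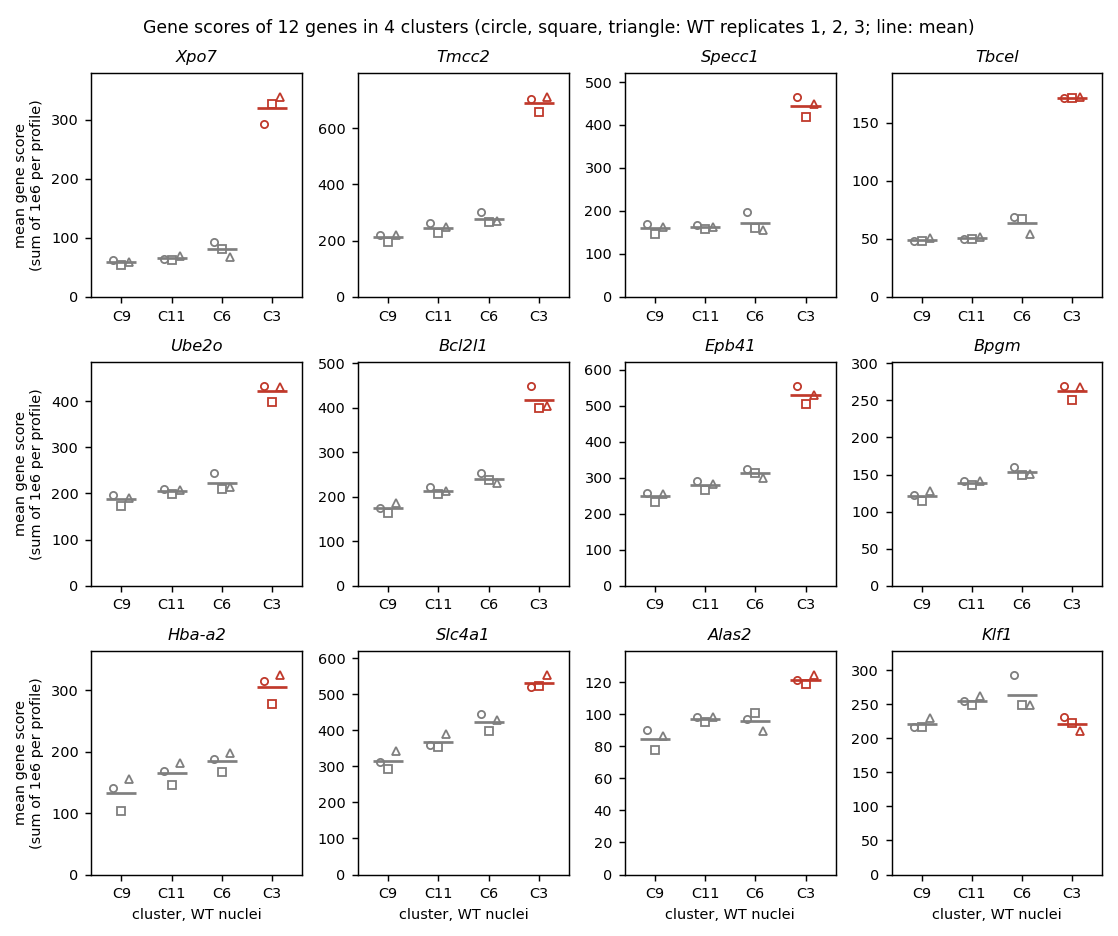
Mean gene score (vertical axes from 0, sum of 1000000 per profile) of 12 genes in WT nuclei of clusters C9, C11, C6 and C3. Circles, squares and triangles are WT replicates 1, 2 and 3 and lines are means. In 11 panels every C3 library lies above every Int profile, and in the panel of Klf1 it does not. Xpo7, Tmcc2, Specc1 and Tbcel were named for being higher than each Int cluster in each library, so their separation restates that choice. The share of all genes that are so separated is not given here.

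The genes of organelle clearance, protein turnover and enucleation held the most higher members of the 18 lists by count, while the globins, with 4 of 8, held a larger share. All 18 lists were chosen with earlier results of these data known, so their counts stand as a description. Of 23 members compared, 10 were higher and 3 lower, beside 2.2% and 23.8% over all genes, and the list's median difference was 0.31 against -0.16. After quantile normalization the list's median was 0.15 and that of all genes 0.04. Ube2o, a ubiquitin-conjugating enzyme that strips unneeded proteins from the maturing cell, scored 433, 399 and 431 in C3 and 172 to 243 in Int (1.04 ± 0.04). Bnip3l, the receptor that marks mitochondria for removal, scored 198, 186 and 185 against Int means of 122, 112 and 113 (0.71 ± 0.02). Ulk1, the kinase that starts autophagy, scored 205, 207 and 215 against 127, 123 and 132 (0.71 ± 0.03). Gabarapl1 and Gabarapl2, which coat autophagosomes, differed by 0.88 and 0.68. The other higher members were Xpo7, Trim58 (0.66), a ubiquitin ligase that acts on dynein before enucleation, Trim10 (0.58), Riok3 (0.73) and Ypel4 (0.60). Of these, Xpo7, Ube2o, Gabarapl1, Gabarapl2, Trim58, Ypel4 and Riok3 had a called neighbour within 100 kb. The lower members were Rac2 (-0.85), a GTPase of the actin skeleton, Diaph2 (-0.77), a formin, and Ubash3a (-1.05). Ubash3a had a C3 mean under the filter of 5 and was compared only through its level in Int. After quantile normalization Ubash3a was -0.31 and no longer met the rule in each library. Rac2 was lower mainly against C9 (-1.60), with -0.21 to C6 and -0.27 to C11, and it overlapped between C3 and C6. Map1lc3b, another autophagosome coat gene, differed by 0.38 ± 0.01 and did not meet the rule.

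The membrane and its skeleton were uneven. Of 24 members compared, 1 was higher and 2 were lower, beside 2.2% and 23.8% of all genes, and the median was 0.05. Epb41 scored 555, 506 and 530 in C3 and 233 to 325 in Int (0.92 ± 0.02), with every library of C3 above every Int profile. Aqp1, the red cell water channel, scored 164, 135 and 131 in C3 and 236 to 277 in Int (-0.86 ± 0.21); after median centring it was -0.63 and no longer met the rule in each library. Cd44, an adhesion receptor that is lost as erythroblasts mature, scored 10.6, 12.1 and 10.7 against 12.3 to 34.2 (-0.92 ± 0.15), and was lowest of the Int clusters in C6. After quantile normalization Cd44 was -0.55 and no longer met the rule in each library. Ank1, which encodes ankyrin, differed by -0.09 ± 0.02 and Sptb, a spectrin gene, by -0.36 ± 0.02, and neither met the rule.

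None of the 4 genes taken as markers of late erythroblasts met the rule. For Slc4a1 and Alas2 every C3 library lay above every Int profile, but the share of all genes that do so is not given here. Slc4a1, the anion exchanger band 3, scored 519, 522 and 554 in C3 and 292 to 444 in Int. All C3 libraries were above all Int profiles, and the differences were 0.48, 0.58 and 0.51, so WT replicate 1 missed the rule of 0.5. Its neighbour Rundc3a was counted as higher. Alas2, the first enzyme of haem synthesis in erythroid cells, scored 121, 119 and 125 against 77.8 to 101 (0.39 ± 0.05), again with no overlap. Slc25a37, the mitochondrial iron importer, differed by 0.17 ± 0.06, and Klf1, the erythroid transcription factor, by -0.16 ± 0.06, with overlapping values. All 4 mean differences were above the median of all genes, but Klf1 only by little (-0.157 against -0.163). In WT replicate 3 Klf1, at -0.23, lay below the median of all genes, -0.12. The name Late therefore stands here as the authors' class.

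Globin genes were higher at the alpha locus. Of 8 globin genes compared, 4 were higher and none lower, beside 2.2% and 23.8% of all genes, and the median was 0.57. Hba-a2 scored 315, 278 and 325 in C3 and 104 to 197 in Int (0.93 ± 0.07), and Hba-a1 296, 290 and 284 against 133 to 205 (0.70 ± 0.14). Hbq1a (0.98) and Hbq1b (0.59) lie in the same cluster of genes on chromosome 11, between chr11:32283672-32284486 (Hba-a1) and chr11:32300069-32300873 (Hbq1a), so the 4 calls come from 1 locus of near-identical and adjacent genes. After quantile normalization Hba-a1 (0.57) and Hbq1b (0.49) no longer met the rule in each library, and Hbq1b also missed it with a pseudocount of 5, in nuclei of 4000 to 10000 fragments and with the Int nuclei pooled. At the beta locus, Hbb-bs scored 448, 430 and 440 against Int means of 323, 290 and 331, a difference of 0.48 ± 0.08 that did not meet the rule.

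No gene of haem synthesis or iron handling met the rule, beside 2.2% higher and 23.8% lower of all genes. Over the 15 haem genes compared the differences lay between -0.37 and 0.44 with a median of 0.17, and over the 15 iron genes between -0.55 and 0.42 with a median of 0.02. After median centring the medians were 0.40 and 0.25, and over all lists 46 members in place of 22 were higher. Tfrc, the transferrin receptor, scored 189, 174 and 178 in C3 and 159 to 186 in Int (0.11 ± 0.08), and the groups overlapped. Among 30 enzymes of red cell metabolism 3 were higher and 1 lower, beside 2.2% and 23.8% of all genes. Bpgm, which makes the 2,3-bisphosphoglycerate that lowers the oxygen affinity of haemoglobin, scored 269, 251 and 268 against 114 to 160 (0.92 ± 0.01). Cat, catalase, scored 131, 126 and 126 against 55.8 to 80.6 (0.94 ± 0.04), and Nt5c3, a nucleotidase that clears pyrimidine nucleotides from RNA breakdown, differed by 0.63, but by 0.48 after quantile normalization, where it no longer met the rule. Bpgm and Cat each had a called neighbour. Ada, adenosine deaminase, was lower (-0.61) on the mean of Int, but its 7.67, 8.11 and 7.17 in C3 overlapped with 7.49 to 8.76 in C6, and it lost its call in 5 settings, at -0.38 after median centring and -0.11 after quantile normalization.

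Of 20 erythroid transcription factors compared, 5 were lower and 1 higher, which is near the shares of 23.8% and 2.2% over all genes. Their median of -0.15 was close to the -0.16 of all genes and was 0.08 after median centring. Gfi1b, a repressor of progenitor genes, scored 92.6, 81.1 and 74.2 in C3 and 128 to 204 in Int (-0.96 ± 0.10), with all C3 libraries below all Int profiles. Ikzf1, Ikaros, scored 79.6, 74.2 and 72.3 against 113 to 145 (-0.73 ± 0.04). Myb, which keeps progenitors dividing, scored 19.8, 20.8 and 18 against Int means of 29.9, 33.7 and 29.5 (-0.64 ± 0.06). Gata2 (-0.78 ± 0.18) and Bcl11a (-0.67 ± 0.13), the repressor of fetal globin genes, scored highest in C9. Gata2 was 12.2, 11.8 and 12.7 in C3, 11.1, 14 and 14.3 in C6 and 38.1, 38.7 and 29.7 in C9. For Bcl11a the values were 61.8, 56.2 and 51.6 in C3, 60.4, 64.4 and 58.7 in C6 and 136, 143 and 134 in C9. Both genes overlapped between C3 and C6. After median centring Gata2 (-0.55), Bcl11a (-0.43) and Ikzf1 (-0.50) no longer met the rule. The higher member was Cbfa2t3, a corepressor bound by Gata1 and Tal1 complexes (261, 237 and 248 against Int means of 165, 158 and 165, 0.61 ± 0.04, with called neighbours). Gata1 (-0.29 ± 0.06) and Tal1 (-0.16 ± 0.16) did not meet the rule, nor did Runx1 (0.39 ± 0.03).

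Genes of cytokine signalling held 5 lower and 1 higher among 16 compared, beside 23.8% and 2.2% of all genes. Their median was -0.22, and 0.01 after median centring. Kit, the receptor of stem cell factor, scored 4.94, 5.33 and 4.75 in C3, 12.1 to 13.5 in C6, and 13.3 to 21.4 in C9 and C11 (-1.40 ± 0.05). In nuclei of 4000 to 10000 fragments a Kit score above 0 was found in 8.82%, 9.69% and 7.78% of C3 and in 11.5% to 32.7% of the Int clusters, and over nuclei of every depth in 7.31% to 9.02% and 10.2% to 45.2%. The 32.7% rests on 98 nuclei of C9 in WT replicate 2, and C9 of WT replicate 3 stood at 15.5% in that window. The inhibitors were uneven: Spred2, which restrains Ras signalling below Kit, differed by -0.88 ± 0.05, Socs1 by -0.78 ± 0.03 and Sh2b3, the brake on Jak2, by -0.75 ± 0.02, while Cish (-0.04 ± 0.04) and Socs3 (0.05 ± 0.07), feedback inhibitors of the same signalling, did not meet the rule. The differences of Spred2, Socs1 and Sh2b3 were greater to C9 (-1.40, -1.11 and -1.24) than to C6 (-0.33, -0.47 and -0.34). Il3ra, a receptor chain for interleukin 3, scored 1.89, 1.97 and 1.32 in C3 and 4.81 to 17.9 in Int (-2.01 ± 0.31). Its C3 mean was under the filter of 5, so it was compared only through its level in Int. The higher member was Bcl2l1, which encodes the survival protein Bcl-xL: it scored 449, 400 and 404 against 163 to 253 (0.99 ± 0.05), with the called neighbours Id1 and Cox4i2. Epor, the erythropoietin receptor, differed by 0.09 ± 0.08, and its values overlapped with those of Int.

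Of 35 genes of replication and mitosis, 4 were lower and none higher, beside 23.8% and 2.2% of all genes. The list's median of -0.14 was close to that of all genes, and it was 0.09 after median centring. Cdk1, the kinase of mitotic entry, scored 44.1, 41.6 and 38.3 in C3 and 67.8 to 88.9 in Int (-0.92 ± 0.16). Tyms, thymidylate synthase, scored 6.96, 7.62 and 5.32 against 7.75 to 27.1 (-1.28 ± 0.24). After quantile normalization Tyms was -0.79 and no longer met the rule in each library. The subunits of ribonucleotide reductase, Rrm1 (-0.87 ± 0.11) and Rrm2 (-0.61 ± 0.06), which make deoxynucleotides, were lower too. Tyms and Rrm1 had called neighbours. So had, among other lower genes named in this report, Myc, Gfi1b, Gata2, Aqp1, Socs1, Sh2b3, Pds5a, Meis1 and Ubash3a, so for these the gene behind the signal is uncertain. Mki67 (-0.34 ± 0.05) and Pcna (-0.32 ± 0.10) did not meet the rule. Among 23 genes of the ribosome and nucleolus, only Myc was lower and only Rps14 higher, beside 23.8% and 2.2% of all genes. Myc, which drives growth and ribosome production, scored 19.2, 17.4 and 16.6 in C3, 36.3, 32.9 and 19.6 in C6, 30.4 to 35.5 in C11 and 83.8 to 104 in C9 (-1.50 ± 0.15). C3 lay below all of them, though it came close to C6 in WT replicate 3. Rps14, a ribosomal protein gene, differed by 0.55 ± 0.03; it missed the rule in a library with a pseudocount of 5, after quantile normalization and in nuclei of 4000 to 10000 fragments.

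**Figure D4:**
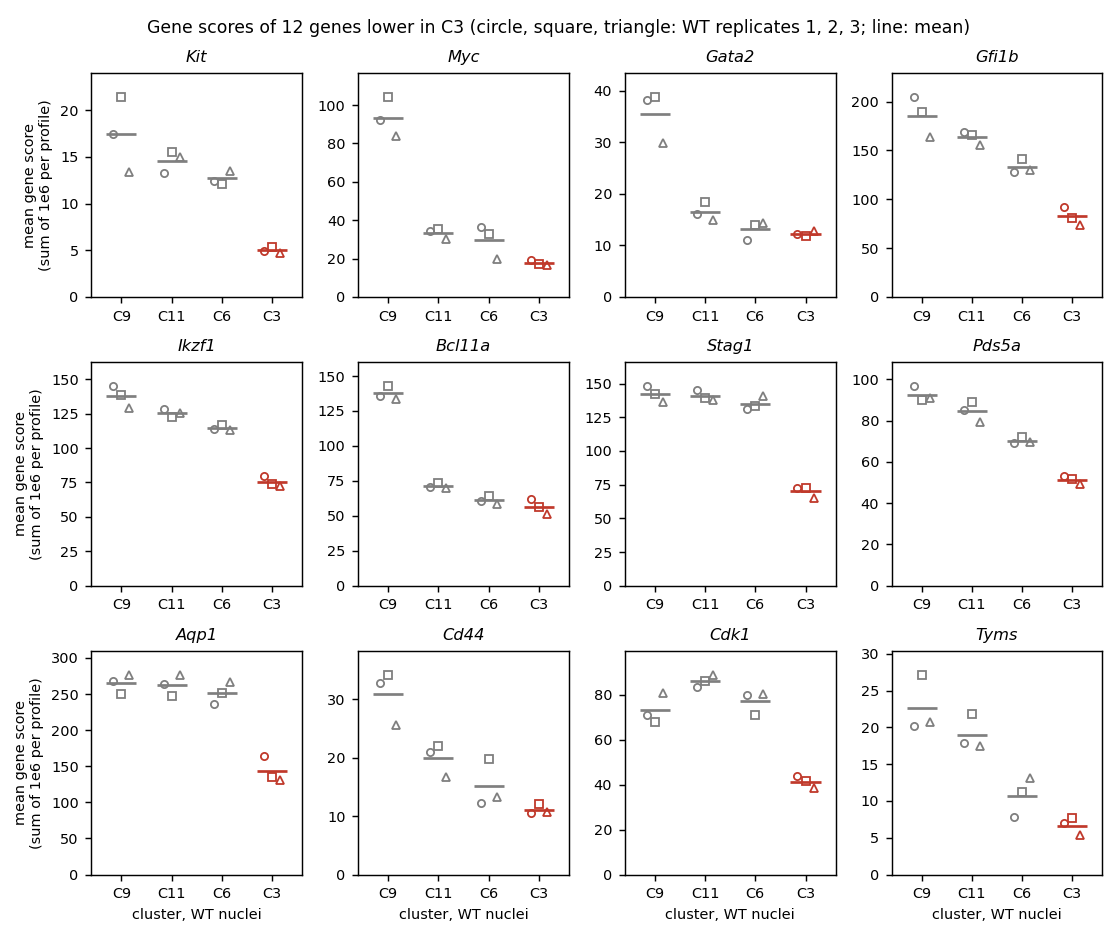
Mean gene score (vertical axes from 0, sum of 1000000 per profile) of 12 genes lower in C3 than in Int, for WT nuclei of clusters C9, C11, C6 and C3. Circles, squares and triangles are WT replicates 1, 2 and 3 and lines are means; the scores of Myc, Gata2 and Bcl11a in C9 stand above those of the other clusters, and Gata2 and Bcl11a overlap between C6 and C3.

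Of the 15 cohesin and CTCF genes, 3 were lower and none higher, beside 23.8% and 2.2% of all genes, and the median was 0.04. Stag1, the paralog of Stag2, scored 72.7, 72.6 and 65.3 in C3 and 131 to 148 in Int, which was -0.98 ± 0.08 with no overlap (chr9:100643623-100958544). Pds5a, a cohesin regulator, scored 53.1, 51.5 and 49.4 against 69.2 to 96.8 (-0.67 ± 0.02), and Smc1a, a subunit of the ring, 32.7, 30 and 31.1 against 41.4 to 50.2 (-0.56 ± 0.03). After median centring, Pds5a and Smc1a stood at -0.44 and -0.33 and no longer met the rule, and Stag1 at -0.75 did. Stag2 scored 67.9, 69.9 and 70.6 in C3 and 53.7 to 65.9 in Int (0.20 ± 0.04). Rad21, the ring's kleisin, differed by 0.04 ± 0.02 and Smc3 by -0.01 ± 0.06.

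Of 17 genes of stem and progenitor cells compared, 11 were lower, Kit included, and none higher, beside 23.8% and 2.2% of all genes. The median was -0.91, but -0.37 with genes kept at a mean of 20 and -0.13 after quantile normalization. Mycn differed by -1.73 ± 0.16, Meis1 by -1.40 ± 0.12, Erg by -1.38 ± 0.13, Mecom by -1.37 ± 0.07 and Fli1 by -1.22 ± 0.24. Of the 11 lower members 6 (Mycn, Meis1, Fli1, Hoxa7, Hoxa9 and Slamf1) had C3 means under the filter of 5 and were compared only through their level in Int, so the count and the median stand here as a description. Erg, which passed the filter in C3 as well, was at 7.38, 8.47 and 8.07 in C3 and 18.2 to 26.3 in Int. Genes with low scores were lower in general, as given above. The 3 members above the median of all genes were Lmo2 (0.43 ± 0.08), Runx1 and Gfi1 (0.38 ± 0.10).

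**Figure D5:**
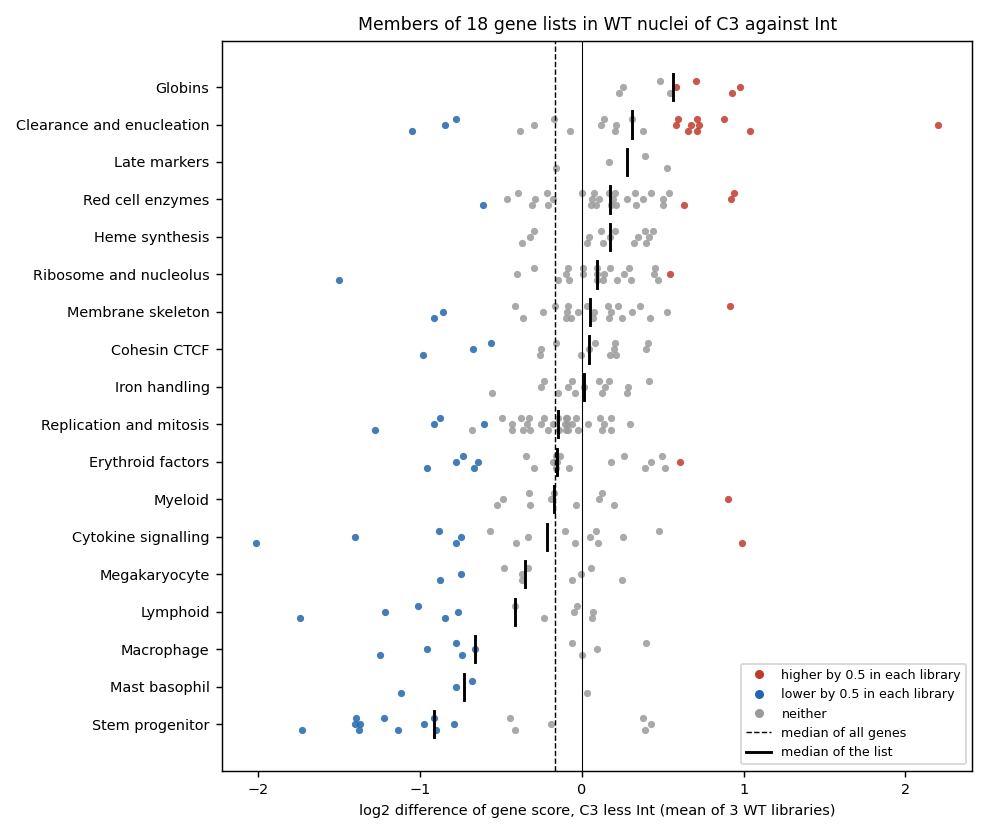
Each point is a member of 1 of 18 gene lists, placed by its log2 difference of C3 less Int (mean of 3 WT libraries); red points were higher and blue points lower by 0.5 in each library, grey points neither. Short black lines are list medians and the dashed line is the median of all genes, -0.16; globins and clearance genes lie to the right of it, and stem and progenitor genes to the left.

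Markers of other cell types were examined for the whole lists. Of the 11 myeloid genes compared 1 was higher and none lower. Of 11 lymphoid genes 5 were lower, of 10 megakaryocyte genes 2, of 4 mast cell and basophil genes 3, Gata2 among them, and of 9 macrophage genes 5. Over all genes 2.2% were higher and 23.8% lower. Among these lower members, 3 lymphoid, 1 megakaryocyte, 1 mast cell and basophil and 4 macrophage genes had C3 means under the filter of 5. They were compared only through their level in Int. The medians of these lists lay between -0.73 and -0.17. With genes kept at a mean of 20 the macrophage median turned to 0.10 and the myeloid median to 0.51, and in nuclei of 4000 to 10000 fragments they were -0.14 and 0.0038, against -0.66 and -0.17 over all nuclei. After quantile normalization they were 0.04 for the lymphoid, 0.06 for the megakaryocyte, 0.36 for the myeloid, -0.06 for the mast cell and basophil and -0.06 for the macrophage list. The summed score was 317 to 334 in C3 and 234 to 253 in Int for the myeloid list, 128 to 148 and 173 to 190 for the lymphoid list, 346 to 389 and 407 to 438 for the megakaryocyte list, 40.9 to 43.4 and 58.3 to 69.6 for mast cells and basophils, and 380 to 403 and 375 to 383 for macrophages. The higher sum of the myeloid list came with Cebpe, the factor of late granulocytes, which scored 195, 172 and 171 in C3 and 78.2 to 124 in Int (0.90 ± 0.07). Some markers had low scores in C3: Lyz2 was at 2.78, 3.47 and 2.64, S100a8 at 3.00, 3.01 and 2.52, Pf4 at 1.39, 1.70 and 0.86, Cd3e at 4.38, 3.87 and 4.25, C1qa at 2.47, 2.87 and 2.56 and Cpa3 at 1.62, 2.23 and 1.33. In Int the same genes stood between 2.34 (Pf4) and 6.01 (Lyz2). Other markers scored more, with C3 means of 60.6 for P2ry1, 18.3 for Gp1ba, 17.3 for Prss34, 8.93 for Il1rl1 and 7.73 for Spi1. Their Int means were 78.5, 31.5, 16.8, 20.7 and 10.0. Their part in the results was not tested.

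The 10 lowest genes had mean scores of 0.727 to 4.76 in C3, below the filter of 5, and passed it only through Int. From start to start, none had another compared gene within 100 kb, but genes inside these genes or at their far ends were not looked for. Zfp536, a zinc finger gene of the nervous system, scored 3.38, 3.99 and 2.69 in C3 and 18.3 to 33.3 in Int (-2.53 ± 0.11, chr7:37318643-37773575). Ptprg, a receptor phosphatase, scored 4.38, 5.41 and 4.5 against 23.5 to 39.3 (-2.47 ± 0.16), and Myt1l, a neuronal factor, 3.49, 1.98 and 2.04 against 13.5 to 26.3 (-2.42 ± 0.18). The others were Cacna2d3 (-2.53), Spock1 (-2.51), Fam19a5 (-2.46), Tshz3 (-2.45), Fam155a (-2.45), Ptprm (-2.41) and Tenm3 (-2.37). All 10 were named because they were lower than each Int cluster in each library, so their separation from Int restates that choice.

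Of the Int clusters, C6 had the smallest median difference to C3 and also the depth most like that of C3. The median absolute difference over the same genes was 0.27 to C6, 0.32 to C11 and 0.44 to C9. C6 lay between C3 and both other Int clusters in 3 of 3 libraries for 114 of the 393 higher genes (29%) and for 1475 of the 4264 lower genes (34.6%), so most called genes did not have this order in each library.

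Scores within C3 moved with depth. Its nuclei were split within each library into tertiles by fragments, with medians of 2847 to 3575 in the shallowest and 8108 to 9614 in the deepest. In the deepest tertile 226 genes were higher than in the shallowest by 0.5 in 3 of 3 libraries (1.26%) and 2 lower (0.0112%). The median difference of deepest less shallowest was 0.15, 0.13 and 0.09 over all genes in WT replicates 1, 2 and 3. It was 0.39, 0.51 and 0.33 for the myeloid list, 0.38, 0.31 and 0.21 for the megakaryocyte list and 0.28, 0.24 and 0.19 for the stem and progenitor list, each above that of all genes in 3 of 3 libraries. The macrophage list, at 0.20, 0.25 and 0.11, was also above that of all genes in each library. The globins, at -0.16, -0.20 and -0.07, lay below that of all genes. So did, among others, the clearance list (-0.09, -0.09 and -0.06), the late markers (-0.20, -0.09 and -0.13) and the haem list (-0.13, -0.12 and -0.09). Xpo7 scored 291, 341 and 310 in the shallowest and 293, 324 and 346 in the deepest tertile, which overlap. Slc4a1 scored 566, 563 and 596 in the shallowest and 475, 491 and 519 in the deepest tertile, with no overlap. Hbb-bs, likewise, scored 521, 469 and 468 and then 389, 393 and 398. Kit had the opposite order, with 3.65, 3.77 and 3.98 in the shallowest and 5.81, 7.12 and 5.41 in the deepest. Against Int, the shallowest tertile gave 342 higher and 4721 lower genes and the deepest 459 and 3354.

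The other large Late cluster, C2, held 190 WT nuclei, 64, 58 and 68 in the 3 libraries, and 7070 KO nuclei. Median fragments per nucleus of C2 were 1919.5, 2258.5 and 1952 in the WT libraries, below those of C3 in each, and 6091.5, 6144 and 6594 in the KO libraries. Peaks held 62.2% ± 1.90 of fragment ends for WT nuclei of C2, 60.9% ± 0.81 for KO nuclei of C2 and 65.0% ± 1.23 for C3. The part of these values in the counts against C2 was not tested. Against WT nuclei of C2, 609 of 16566 genes were higher in C3 (3.68%) and 840 lower (5.07%). The differences of any 2 libraries correlated across genes only at 0.085 to 0.19, so single genes are uncertain. WT nuclei of C2 were few and shallow, and the part of this in the low correlation was not tested. Of the 5 genes that led the higher side, Ankrd63, Sapcd1 and Cysrt1 were listed at 0 in all 3 C2 profiles and Wdr5b and Zfp952 in 2 of 3. All 5 had C2 means under the filter of 5 and were compared only through C3. On the lower side the genes were Vmn1r16, Klra8, Adam12, Igsf10 and Ptchd4. Klra8 stood at 0.916, 0.607 and 0.669 in C3 and at 11.7, 11.6 and 11.8 in C2. The others were less even: Adam12 stood at 18.1, 38.2 and 126 in C2, Igsf10 at 26.2, 23.7 and 3.98 and Ptchd4 at 6.01, 50.9 and 25.9, but Vmn1r16 at 22.0, 19.9 and 15.1. All named on the lower side except Adam12 had C3 means under the filter of 5 and were compared only through C2. Leaving out any library raised both counts to between 1344 and 2192, as the rule then asked for 2 libraries.

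KO nuclei of C2 held 97.3% of the nuclei of class Late in the KO libraries, and no WT library held more than 68 nuclei of C2, so cluster and genotype cannot be told apart in a comparison with WT nuclei of C3. A gene was counted where the mean difference was at least 0.5 and every C3 library lay on the same side of every C2 library: 174 of 15797 genes were higher in C3 (1.1%) and 2021 lower (12.8%). This comparison shares the C3 libraries with that against Int, and the values stand side by side. Xpo7 scored 340, 329 and 353 in KO nuclei of C2, Tmcc2 702, 710 and 722, Epb41 545, 545 and 503 and Slc4a1 518, 529 and 509. None of these met the rule. Of the other late markers, Slc25a37 scored 31.7, 24.1 and 27.1 and was higher in C3 (0.63), while Alas2 (0.19) and Klf1 (0.23) did not meet the rule. Khnyn scored 73.8, 74.2 and 82.0 and was lower in C3 (-0.93), unlike the rest of the 10 genes highest against Int, which did not meet the rule. Gata2, at 29.6, 30.6 and 30.2, was lower in C3 too (-1.23). Aqp1 was 95.5, 85.7 and 89.3 in KO nuclei of C2 and higher in C3 (0.66). Stag1 was 56.1, 60 and 58.9 (0.26) and Stag2 62.5, 68.6 and 64.9 (0.09); the score covers the whole Stag2 gene, so it is no check of the deletion.

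The genes with the largest differences between C3 and KO nuclei of C2 are given with their difference to Int. Irf1, a factor of the interferon response, scored 6.09, 4.97 and 6.26 in C3 and 49.6, 42.8 and 42.4 in KO nuclei of C2 (-2.76), and differed from Int by -0.19. Apol11a, an apolipoprotein L gene, scored 10, 13.6 and 5.99 against 93.8, 76.6 and 82.6 (-3.03), and differed from Int by 0.32. Gmpr, Apol7c and Arhgdib followed with -2.47, -2.45 and -2.42, and differed from Int by -0.63, -0.07 and 0.06. On the other side, P2ry1, a nucleotide receptor, scored 60.5, 61.4 and 59.8 in C3 and 26.5, 25.9 and 25.8 in KO nuclei of C2 (1.19), and Klf5, a transcription factor, 45.6, 46.3 and 40.4 against 17.3, 19.2 and 21.6 (1.15). They differed from Int by -0.37 and -0.51. Gpc4 (1.25), Hbegf (1.10) and Dnajb13 (1.06) were higher in C3 as well, and differed from Int by -0.88, -0.10 and 1.10. Gpc4 stood at 3.54, 2.95 and 3.31 in KO nuclei of C2, under the filter of 5, and was compared only through its level in C3. Apol7c, at 3.69, 6.67 and 4.18, had a C3 mean under the filter and was compared only through KO nuclei of C2.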

How the data were processed

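The authors deposited gene scores, a signal per gene and nucleus, and the values in each nucleus summed to 9999.855 to 10000.12 over 24333 genes when checked. How fragments were weighted around a gene is not given in the sources used here. Cell Ranger and the build mm10 are named in the submitters' processing notes. The deposited table of nuclei holds, per the file headers, counts of fragments per nucleus, the fraction of fragment ends in promoters, the nucleosome ratio, the start-site enrichment score and the doublet score, with clusters and classes; the shares in peaks and in blacklisted regions stand there too. It lists each nucleus 2 times, and 1 copy was used. Total fragments per WT library were 61655588 to 66286151.

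From these values, mean profiles per library and cluster were computed, rescaled to 1000000 and compared as log2(value + 1); this scale understates differences of low genes. Genes were kept at a mean of at least 5 over the profiles compared. Clusters with at least 50 nuclei in a library were used, so no fit between genotypes was made within C3. The library was the replicate. Fold steps of 0.5 and 1 are on the log2 scale. Genes named were the 10 highest and 10 lowest against each of C6, C9 and C11, leaving out Gm, Rik, Olfr and microRNA symbols (53 higher and 931 lower genes were counted but not named), up to 4 members of each of 18 lists, and a fixed set of markers and regulators; for C2 the 5 highest and 5 lowest. Other list members are named in the counts and as members that did not meet the rule, chosen after their values were seen, as were the promoters printed. The members and lists were chosen with earlier results of these data known. The comparison with KO nuclei of C2, the depth tertiles, the share of ends in promoters, the use of the share of nuclei with a doublet score above 0 (its median was 0) and the motifs were added after the files were seen. The rule was tested on simulated data. Python 3.11.15, numpy 2.4.6, pandas 2.3.3, scipy 1.17.1 and matplotlib 3.10.9 were used. Promoter sequences are from RefSeq.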

Additional observations from a re-analysis of the deposited data

How the results depend on the processing

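Over 13 alternative settings no gene called in C3 against Int was called in the opposite direction, but calls were lost: of 393 higher and 4264 lower genes, 278 and 2694 were called again in nuclei of 4000 to 10000 fragments, and 291 and 1412 after quantile normalization. Many of the named genes were chosen by their call or by the size of their difference. The count of calls among them restates that choice in part. Over all genes 2.2% were called higher and 23.8% lower, and the share of all calls kept in every setting is not given here. Of the 93 named genes 66 were called, and 42 of these kept their call in every setting in which they were tested (35 of the 93 were not tested with a filter at 20). Counts of genes moved more. For 4264 lower genes against Int the count was 945 with a filter at a mean of 20, 7935 with no filter and 1493 after quantile normalization, and for 393 higher genes it was 1529 after median centring and 1076 after quantile normalization. Among list members, 48 lower became 30 with a pseudocount of 5, 18 with a filter at 20, 26 after median centring and 26 after quantile normalization, and 22 higher became 46 after median centring. Against C9, median centring gave 3377 higher and 2316 lower genes, and the depth window of 4000 to 10000 fragments 2478 lower. Against C11 they gave 1182 higher and 2412 lower. Leaving out each WT library gave 642 to 816 genes higher than in C6, and 1344 to 1635 higher and 1618 to 2192 lower than in WT nuclei of C2; the rule then asks for fewer libraries. The difference in nuclei with a doublet score above 0, -3.95 percentage points, turned to 3.75 in the depth window. The median of the macrophage list, -0.66, turned to 0.10 with a filter at 20, and Hdc, at -0.68, to 0.28 after quantile normalization. For the fewer genes tested under a filter and the fewer libraries the construction shows the cause; for the others the cause was not tested. The median of the mast cell list had no value with a filter at 20, where no member was left, and the depth window was not run for C2, which held 4, 5 and 13 such WT nuclei. Clusters were compared within each library, except WT nuclei of C3 against KO nuclei of C2, which come from different libraries. Between WT and KO, whose labels share replicate numbers, no paired analysis was possible within C3 because its KO nuclei were too few. The KO libraries held 17, 21 and 37 nuclei of C3, below the minimum of 50. The comparison of genotypes within C3 and its alternatives were therefore not run. For WT nuclei of C3 against KO nuclei of C2 the rule did not pair libraries by replicate number, and a paired form was not tested.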
